A study of Mus musculus with 4 samples.

Results

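The genes described here are macrophage genes measured in mouse bone marrow stromal cultures. They were taken as the rows of the deposited count table that carry 1 of 37 listed gene names. Of these, 36 rows were found among the 44788 genes of the table, because Adgre1 is the current symbol of Emr1 and has no second row. The count filter was passed by 34 of the 36.

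The cultures were bone marrow stromal cells of C57BL/6J mice whose Setd2 gene was floxed (Setd2 fl/fl) in both groups. Setd2 encodes the histone methyltransferase that adds the third methyl group to lysine 36 of histone H3. At passage 2 the cells received a lentivirus with Cre recombinase, which deletes the floxed part of Setd2, or a lentivirus with GFP as the control, and stayed under puromycin at 2 µg/ml for 4 days. RNA was sequenced from 2 libraries per virus (n = 2 each). Whether the 2 libraries of a virus stem from separate cultures or mice is not labelled, and p-values may therefore reflect technical spread alone. GFP was the only control, so loss of Setd2 and Cre itself cannot be told apart, and a bulk library does not show in which cells of the culture Setd2 was deleted.

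Macrophages are phagocytes of the blood cell lineage that adhere to plastic, and they commonly persist in early passages of bone marrow stromal cultures, where the stroma feeds them with the growth factor Csf1. They take up debris and microbes through scavenger, mannose and Fc receptors, pass signals through small adaptor proteins with tyrosine motifs, and digest their cargo in lysosomes. Their identity depends on the ETS family transcription factor PU.1, the product of Spi1, which binds DNA around a GGAA core.

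The libraries held 14311924 and 14315903 counts with Cre and 12806928 and 12371994 counts with GFP. Setd2 had 38.1 and 32.3 CPM (counts scaled to a common library size with TMM) with Cre, against 107 and 106 CPM with GFP, so all 4 libraries match their labels. Ribosomal and other abundant noncoding RNAs took 1.65% and 1.52% of the counts with Cre, against 2.50% and 8.67% with GFP. This share includes the protein-coding gene Lars2, and GFP replicate 2 stands apart in it. In edgeR's quasi-likelihood test 1009 of 14483 genes (6.97%) were called at an adjusted p below 0.05, 542 (3.74%) higher and 467 (3.22%) lower in Cre. The calls depended on single libraries: 516 genes passed without Cre replicate 1, 373 without Cre replicate 2, 12 without GFP replicate 1 and 0 without GFP replicate 2, where 2197 genes (14.6%) had an unadjusted p under 0.05 (2154 or 14.4% without GFP replicate 1). DESeq2 called 378 genes with all libraries.

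The label was checked against markers of macrophages and other cells. Macrophage RNA was present: Ptprc, the pan-leukocyte phosphatase CD45, had between 32.2 and 38.1 CPM in the 4 libraries, and Csf1r, the receptor for Csf1, between 80.6 and 101 CPM. Of 14 neutrophil genes 3 were high enough to test, among them Mmp8 with between 10.2 and 12.1 CPM, and S100a9, Elane, Cxcr2 and Retnlg were at 0 in every library. Of 16 lymphocyte genes only Cd4 was high enough to test, while the T cell receptor components Cd3e, Cd3d and Cd3g were at 0. Cd4 was called higher in Cre by edgeR (log2 fold change 0.75) but not by DESeq2 (DESeq2 adjusted p = 0.143). The summed level of the lymphocyte list was 9.48 and 10.1 CPM with Cre, against 6.09 and 5.71 CPM with GFP, nearly all of it Cd4, which some macrophages express. Summed levels of the neutrophil list (14.9 and 14.1 CPM with Cre, 14.7 and 16.5 CPM with GFP) and of the monocyte and dendritic cell list (138 and 147 CPM with Cre, 139 and 145 CPM with GFP) overlapped between the groups. Bst2, which many cell types express, made up most of the second sum, with 126 and 135 CPM with Cre, against 125 and 132 CPM with GFP. In edgeR 0 of 2 mast cell and basophil, 5 erythroid and megakaryocyte and 6 endothelial genes high enough to test passed. Of each list 1 had an unadjusted p under 0.05 (20.9% of all tested genes). DESeq2 called 0, but gave an adjusted p to 1, 2 and 0 of them. The basophil gene Mcpt8 had 18.8 and 19.5 CPM with Cre, against 23.0 and 22.5 CPM with GFP, and the platelet factor gene Pf4 had 19.0 and 17.9 CPM with Cre, against 15.1 and 16.2 CPM with GFP. The monocyte gene Ly6c2 had 1 and 0 counts with Cre, against 0 and 3 counts with GFP, and the class II antigen gene H2-Aa had 1 and 0 counts with Cre, against 1 and 2 counts with GFP. Its partner chain gene H2-Ab1 had more counts than H2-Aa, with 69 and 68 counts with Cre, against 58 and 63 counts with GFP. Scaled, H2-Ab1 had 4.77 and 4.70 CPM with Cre, against 4.41 and 5.36 CPM with GFP, and its groups overlapped. On the stromal side Col1a1, the main collagen chain of bone, had 9641 and 10160.0 CPM with Cre, against 6881 and 6910.4 CPM with GFP. The 17 stromal genes together had 22446 and 23457 CPM with Cre, against 17474 and 17132 CPM with GFP. Of 16 tested, 5 rose and 2 fell in edgeR (3.74% and 3.22% of all tested genes). The part of this stromal difference in the macrophage results was not tested. Lum, a stromal proteoglycan gene, had at most 2 counts in any library.

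The promoters of several macrophage genes are shown because PU.1 sites are the best known feature of such promoters. The 250 bases before the start of each gene come from RefSeq on GRCm38.p6, in which 28 of the 36 members matched by symbol. The motif searched was GAGGAA, a common PU.1 core, on both strands, and matches are in capitals (TTCCTC where the match lies on the other strand); a gene with several starts counts once if any window holds it. The first sequences belong to 4 members that rose in Cre, at chr11:69666171-69666420 (minus strand), chr4:136886201-136886450 (minus strand), chr2:14229164-14229413 (plus strand) and chr17:48346151-48346400 (plus strand). Plek, at chr11:17008719-17008968 (minus strand), did not pass the test, and Lyz2, at chr10:117282273-117282522 (minus strand), rose but has no match in this window.
Cd68: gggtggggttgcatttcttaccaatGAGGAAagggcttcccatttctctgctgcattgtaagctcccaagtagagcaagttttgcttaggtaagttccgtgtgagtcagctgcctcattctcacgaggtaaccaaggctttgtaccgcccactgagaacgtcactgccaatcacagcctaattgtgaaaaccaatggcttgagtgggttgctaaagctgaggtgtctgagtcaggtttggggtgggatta
C1qb: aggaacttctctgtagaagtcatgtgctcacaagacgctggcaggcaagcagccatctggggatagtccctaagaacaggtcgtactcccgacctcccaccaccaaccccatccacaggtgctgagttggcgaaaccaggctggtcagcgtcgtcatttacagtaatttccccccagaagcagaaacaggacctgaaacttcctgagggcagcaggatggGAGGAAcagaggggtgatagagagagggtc
Mrc1: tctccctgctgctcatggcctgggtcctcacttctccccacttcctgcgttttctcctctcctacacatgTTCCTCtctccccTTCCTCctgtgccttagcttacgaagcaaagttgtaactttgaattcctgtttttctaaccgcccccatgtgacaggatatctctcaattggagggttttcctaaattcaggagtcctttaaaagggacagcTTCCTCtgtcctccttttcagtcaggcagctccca
Trem2: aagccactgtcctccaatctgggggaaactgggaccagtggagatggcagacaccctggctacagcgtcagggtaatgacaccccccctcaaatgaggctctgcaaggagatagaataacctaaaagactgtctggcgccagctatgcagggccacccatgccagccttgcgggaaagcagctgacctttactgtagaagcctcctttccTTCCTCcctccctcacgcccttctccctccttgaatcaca
Plek: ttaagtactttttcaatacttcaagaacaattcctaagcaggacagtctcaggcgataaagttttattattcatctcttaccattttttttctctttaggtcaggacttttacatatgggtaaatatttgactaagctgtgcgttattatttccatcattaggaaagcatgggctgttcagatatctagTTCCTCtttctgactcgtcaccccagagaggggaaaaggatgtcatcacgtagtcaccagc
Lyz2: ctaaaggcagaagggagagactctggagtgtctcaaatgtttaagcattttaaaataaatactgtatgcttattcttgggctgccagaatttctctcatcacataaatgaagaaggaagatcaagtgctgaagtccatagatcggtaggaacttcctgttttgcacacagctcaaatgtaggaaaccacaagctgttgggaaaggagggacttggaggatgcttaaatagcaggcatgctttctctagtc

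GAGGAA occurred in 14 of the 28 members, and in 25.9% of the 27018 genes with a promoter sequence. It was found in 4 of the 7 that rose (57.1%) and in 10 of the 19 that were tested and did not pass (52.6%). Mrc1 had 3 matches in the window shown, all on the other strand. The 2 members too low to test, Cd163 and Cx3cr1, had none. A match describes letters only and is not a measured binding site.

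The comparison of Cre with GFP asks how the macrophage genes stand when Setd2 has been deleted in the culture, and whether they move together. The calls among them did not all go the same way, though called against not called is no test of a difference between members. Of the 34 members tested, 10 rose and 1 fell in Cre, against a background of 3.74% of all tested genes higher and 3.22% lower. The uptake receptor genes Siglec1, Mrc1, Cd68 and Msr1 and the receptor and adaptor pair Trem2 and Tyrobp rose. The complement gene C1qb, the actin regulator Coro1a, and the abundant genes Lyz2 and Lgals3 rose too. These 10 rises ranged between 1.18-fold and 1.45-fold. Emr1, the adhesion receptor that marks mature mouse macrophages, fell to 0.815 times its GFP level.

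The median log2 fold change of the 34 was 0.19, against -0.0045 over all tested genes, and 25 of the 34 lay above 0. In 20 of the 34 both Cre libraries lay above both GFP libraries, where 24.5% of all tested genes did so, and in 2, Emr1 and Ms4a7, both lay below, where 25.5% of all tested genes did so. In a bulk sample, fewer or more macrophages and less or more RNA per macrophage cannot be told apart. The calls did not survive the loss of most single libraries. Neither the 10 rises nor the fall of Emr1 passed in edgeR without GFP replicate 2 (0 of all genes), without GFP replicate 1 (background 0.0268% higher, 0.0535% lower) or without Cre replicate 1 (1.75% higher, 1.76% lower). At an unadjusted p under 0.05 the members numbered 20 with all libraries (20.9% of all genes), 18 without GFP replicate 2 (14.6%), 17 without GFP replicate 1 (14.4%) and 18 without Cre replicate 1 (16.4%). Without Cre replicate 2, 4 rises (Siglec1, Mrc1, Cd68 and Trem2) and 0 falls passed (background 1.37% higher, 1.16% lower), with 13 members at an unadjusted p under 0.05 (12.2% of all genes).

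Of the 32 members with an adjusted p, DESeq2 called 4 higher (Mrc1, Cd68, Lyz2 and Lgals3; background 2.35%) and Emr1 lower (1.2%). With library size alone as the scale, edgeR called 7 higher (2.4%) and 1 lower (1.26%), and without a low-count filter it called 0 (0.0707% higher, 0.0471% lower), with 17 members and 2762 genes (10.8%) at an unadjusted p under 0.05. With the abundant noncoding RNAs and Lars2 left out it called 9 higher (3.64%) and 1 lower (3.16%).

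**Figure D1:**
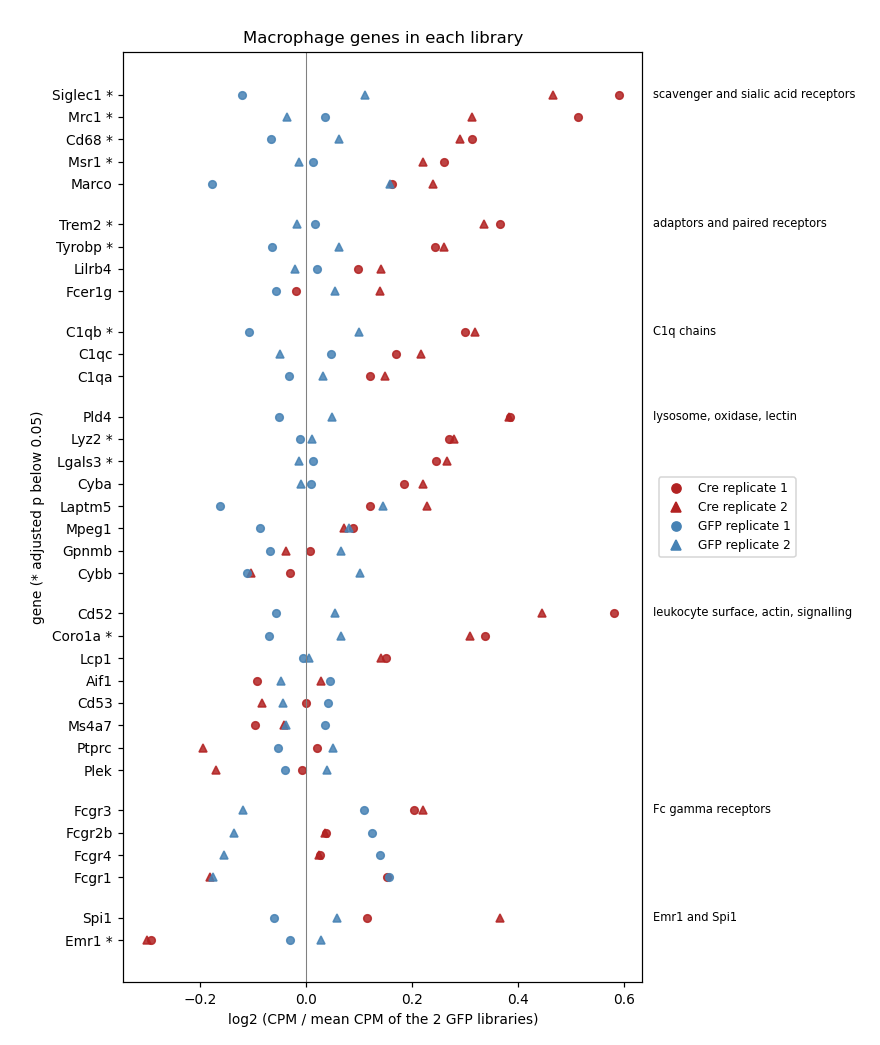
Level of each of the 34 tested macrophage genes in every library, as log2 of CPM over the mean CPM of the GFP libraries (horizontal axis), by role; red marks Cre and blue GFP, circles replicate 1 and triangles replicate 2, and stars an adjusted p below 0.05. The Cre points of Siglec1, Mrc1, Cd68, Trem2 and Lyz2 lie right of both GFP points, those of Emr1 lie left of them, and those of Ptprc, Plek, Cybb and the Fc receptor gene Fcgr1 overlap them.

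The summed level of all 36 members was 5380.1 and 5361 CPM with Cre, against 4738 and 4959.5 CPM with GFP. The Cre libraries were both higher, at 5371 ± 13.3 CPM, against 4849 ± 157 CPM in the GFP libraries (SD, n = 2 each), a ratio of 1.11 that was not tested. As raw shares the members took 0.543% and 0.542% of all counts with Cre, against 0.486% and 0.471% with GFP. Lyz2, Gpnmb and Lgals3 dominate this sum. Without these 3 genes it was 2052 and 2049 CPM with Cre, against 1839 and 1942 CPM with GFP, a ratio of 1.08.

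Levels were compared between members per kilobase of the longest protein-coding GENCODE M21 transcript. The highest was Lyz2, the lysozyme gene of macrophages and neutrophils, at 1285 CPM per kilobase with Cre and 1063 CPM per kilobase with GFP. Next in the GFP libraries came Gpnmb, a membrane glycoprotein of lysosome-rich macrophages that bone-forming cells make too, at 305 CPM per kilobase with Cre and 309 CPM per kilobase with GFP. Lgals3, the gene of the sugar-binding lectin galectin-3, followed with 351 CPM per kilobase with Cre and 294 CPM per kilobase with GFP, and in the Cre libraries it stood above Gpnmb. Cd68 (133 CPM per kilobase with Cre, 108 with GFP) and Tyrobp (116 with Cre, 97.9 with GFP) came after these. The lowest tested members in the GFP libraries were Siglec1 (3.06 with Cre, 2.12 with GFP) and Fcgr2b (1.68 with Cre, 1.64 with GFP), in the same unit.

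**Figure D2:**
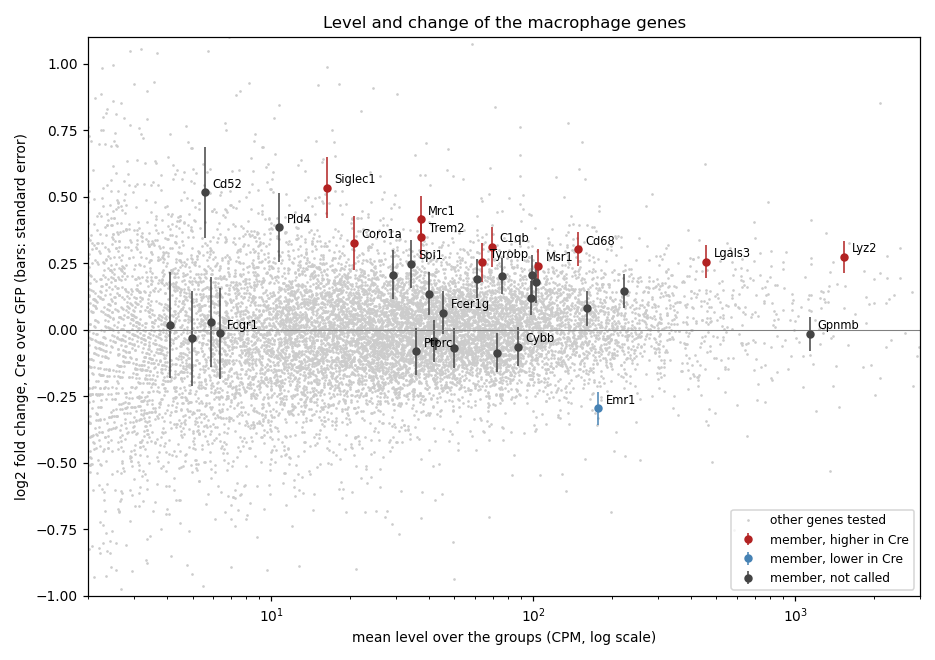
Log2 fold change of Cre over GFP (vertical axis, bars give the standard error) against the mean level in CPM on a log axis for the 34 macrophage genes and, in grey, the other genes tested; red members are higher, the blue member lower and dark grey members not called. Genes beyond the axes are not drawn. Lyz2 and Gpnmb have similar mean levels, and Lyz2 lies at 0.27 and Gpnmb at -0.02.

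Of 5 uptake receptor genes tested, 4 rose, where 3.74% of all tested genes did so. All 5 had both Cre libraries above both GFP libraries, where 24.5% of all tested genes did so. In Marco the lower Cre library had 103.11 CPM and the higher GFP library 102.78 CPM. Siglec1, which encodes the sialic acid receptor sialoadhesin of tissue macrophages, had 20.4 and 18.7 CPM with Cre, against 12.5 and 14.6 CPM with GFP. This was the largest fold change among the members (log2 fold change 0.53, standard error 0.11, edgeR adjusted p = 0.00321, DESeq2 adjusted p = 0.108), and the gene lies on chromosome 2 from 131067801 to 131086778. Mrc1, the mannose receptor gene, had 45.9 and 39.9 CPM with Cre, against 33.0 and 31.3 CPM with GFP (0.42, standard error 0.09, edgeR adjusted p = 0.00233). The groups of both genes were separate, and the Cre libraries of Mrc1 differed from each other more than its GFP libraries did.

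Cd68, the gene of a heavily glycosylated protein of lysosomal membranes, had 165 and 163 CPM with Cre, against 127 and 139 CPM with GFP (log2 fold change 0.30, edgeR adjusted p = 0.00296). Msr1, a receptor for modified lipoproteins, had 115 and 112 CPM with Cre, against 96.7 and 94.9 CPM with GFP (0.24, edgeR adjusted p = 0.0186, DESeq2 adjusted p = 0.0851). In both genes the higher GFP library lay below the lower Cre library. Marco, a related scavenger receptor gene, had 103 and 109 CPM with Cre, against 81.4 and 103 CPM with GFP (0.20, edgeR adjusted p = 0.115). Its GFP libraries were further apart than its group means, and its log2 fold change was 0.04 without GFP replicate 1 and 0.38 without GFP replicate 2. Cd163, the receptor for haptoglobin-bound haemoglobin, was too low to test, with 4 and 8 counts with Cre, against 1 and 3 counts with GFP.

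Among signalling receptors and adaptors, a receptor rose together with its partner. Trem2 encodes a lipid-sensing receptor that signals through the adaptor encoded by Tyrobp. Trem2 had 42.6 and 41.7 CPM with Cre, against 33.4 and 32.6 CPM with GFP (log2 fold change 0.35, standard error 0.08, edgeR adjusted p = 0.00612). Tyrobp had 69.1 and 69.9 CPM with Cre, against 55.9 and 61.0 CPM with GFP (0.25, standard error 0.07, edgeR adjusted p = 0.0291). The replicates of Trem2 lay close together in both groups. DESeq2 did not call either gene (DESeq2 adjusted p = 0.112 for Trem2 and 0.193 for Tyrobp).

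Fcer1g, the other small adaptor, which serves Fc receptors, had 43.8 and 48.9 CPM with Cre, against 42.7 and 46.1 CPM with GFP, and its groups overlapped (0.06, edgeR adjusted p = 0.713). Lilrb4, an inhibitory receptor, had 100.4 and 104 CPM with Cre, against 95.1 and 92.5 CPM with GFP (0.12, edgeR adjusted p = 0.300). Its count is uncertain, because 35.9% of its exon bases are shared with Gm49339 and because it has a close relative, Gp49a, with 941 and 909 counts with Cre, against 801 and 698 counts with GFP.

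The Fc gamma receptors, which bind antibody-coated particles, did not pass: 0 of 4 were called in edgeR. Of the 4, 1 had an unadjusted p under 0.05 (20.9% of all tested genes). DESeq2 called 0 of the 3 with an adjusted p. Fcgr3, an activating receptor, was the most abundant, with 31.3 and 31.7 CPM with Cre, against 29.3 and 25.0 CPM with GFP (log2 fold change 0.21, edgeR adjusted p = 0.184). Leaving out GFP replicate 2 gave it 0.10, and leaving out GFP replicate 1 gave it 0.33. Fcgr1, the high-affinity receptor, had 7.06 and 5.60 CPM with Cre, against 7.08 and 5.62 CPM with GFP. Fcgr2b, the inhibitory receptor, and Fcgr4 had log2 fold changes of 0.03 and 0.02. Their standard errors, 0.17 and 0.20, were wide enough that a change of the size seen in Cd68 was not detectable at this depth. Reads of these related genes can be split between them in ways the sources used here do not state.

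The chains of C1q, the molecule that starts the classical complement pathway, were all higher in Cre by their means, and C1qb alone passed. Their genes lie side by side on chromosome 4, C1qb from 136880126 to 136886200, C1qc from 136889801 to 136892936 and C1qa from 136895916 to 136898844. C1qb had 76.7 and 77.8 CPM with Cre, against 57.9 and 66.8 CPM with GFP (log2 fold change 0.31, standard error 0.07, edgeR adjusted p = 0.00778). C1qc had 63.9 and 66.0 CPM with Cre, against 58.7 and 54.8 CPM with GFP (0.19, edgeR adjusted p = 0.110). C1qa had 41.6 and 42.4 CPM with Cre, against 37.4 and 39.1 CPM with GFP (0.14, edgeR adjusted p = 0.346). In all 3 genes both Cre libraries were above both GFP libraries, where 24.5% of all tested genes did so. Whether C1qb changed more than its neighbours was not tested, and DESeq2 did not call it (DESeq2 adjusted p = 0.0687).

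Of 8 genes of the lysosome, the oxidase and galectin-3, 2 rose, where 3.74% of all tested genes did so. Lyz2 had 1685 and 1697 CPM with Cre, against 1388 and 1409 CPM with GFP (log2 fold change 0.27, standard error 0.06, edgeR adjusted p = 0.00410). Its position is chromosome 10, bases 117277541 to 117282272, and its close relative Lyz1 had between 17 and 27 counts per library. Lgals3, which fibroblasts express too, had 495 and 502 CPM with Cre, against 422 and 414 CPM with GFP (0.26, edgeR adjusted p = 0.00895). In both genes the replicates lay close together, and DESeq2 called both (DESeq2 adjusted p = 1.49e-06 for Lyz2 and 0.000329 for Lgals3).

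Gpnmb, the other abundant member, had 1148 and 1113 CPM with Cre, against 1089.7 and 1195 CPM with GFP, and its groups overlapped (-0.02, edgeR adjusted p = 0.929). Cyba and Cybb encode the paired membrane subunits of the phagocyte NADPH oxidase, of which Cyba is made by many cell types. Cyba had 80.7 and 82.7 CPM with Cre, against 71.5 and 70.5 CPM with GFP (0.20, edgeR adjusted p = 0.0690). Cybb had 87.3 and 82.9 CPM with Cre, against 82.5 and 95.6 CPM with GFP (-0.06, edgeR adjusted p = 0.677). Pld4, an endolysosomal nuclease gene, stood at 0.39 (edgeR adjusted p = 0.0689), the lysosomal membrane gene Laptm5 at 0.18 and the pore-forming protein gene Mpeg1 at 0.08, and none of these passed. Laptm5 stood at 0.03 with GFP replicate 1 left out and at 0.34 with GFP replicate 2 left out.

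Of 8 genes of the leukocyte surface, actin and signalling, Aif1 and Ms4a7 among them, 1 rose (3.74% of all tested genes), with a median of -0.04. The rise was that of Coro1a, which binds actin under the leukocyte membrane. It had 23.3 and 22.9 CPM with Cre, against 17.6 and 19.3 CPM with GFP (log2 fold change 0.33, standard error 0.10, edgeR adjusted p = 0.0456). DESeq2 gave it an adjusted p of 0.417. Ptprc had 37.4 and 32.2 CPM with Cre, against 35.5 and 38.1 CPM with GFP (-0.08, edgeR adjusted p = 0.655), and its Cre libraries enclosed one GFP library.

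The tetraspanin gene Cd53 (-0.04), the cytoskeletal signalling gene Plek (-0.09), the calcium-binding protein gene Aif1 (-0.03) and Ms4a7 (-0.07) did not pass, and their log2 fold changes were all below 0. With 1 library left out, those of Plek lay between -0.16 and -0.0061 and those of Ms4a7 between -0.10 and -0.03. Lcp1, the actin-bundling plastin of leukocytes, had 234 and 232 CPM with Cre, against 210 and 211 CPM with GFP (0.15, edgeR adjusted p = 0.170). Cd52, a short surface glycoprotein, stood at 0.52 (edgeR adjusted p = 0.0645) on between 57 and 101 counts per library, and 14.5% of its exon bases are shared with Crybg2 on the opposite strand.

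Of the identity genes Emr1 fell and Spi1 did not pass. Emr1, on chromosome 17 from 57358581 to 57483529, had 160 and 159 CPM with Cre, against 192 and 200.1 CPM with GFP. Both Cre libraries were below both GFP libraries (log2 fold change -0.30, standard error 0.06, edgeR adjusted p = 0.00293; DESeq2 adjusted p = 0.00277). The log2 fold change ranged between -0.32 and -0.26 when 1 library was left out, with edgeR adjusted p-values between 0.0777 and 0.260. Spi1 had 33.8 and 40.3 CPM with Cre, against 30.0 and 32.5 CPM with GFP (0.25, standard error 0.09, edgeR adjusted p = 0.0993). Its log2 fold change was 0.12 without Cre replicate 2 and 0.37 without Cre replicate 1. The chemokine receptor gene Cx3cr1 was too low to test, with 2 and 5 counts with Cre, against 2 and 4 counts with GFP.

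To see how single members stood against the others, the same test over all genes was repeated with libraries scaled on the members themselves, by the median of ratios over the 34. This scale puts the middle of the members near 0 by construction (median log2 fold change 0.01) and moves the median of all genes to -0.18. On it 2 of the 34 members were higher and 7 lower in Cre, where 1.24% of all tested genes were higher and 27.6% lower. Siglec1 (0.36, edgeR adjusted p = 0.0200) and Mrc1 (0.24, edgeR adjusted p = 0.0403) were the 2 higher members.

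Emr1 stood furthest below (-0.47, edgeR adjusted p = 2.18e-06), followed by Plek (-0.26), Ptprc (-0.26), Ms4a7 (-0.24), Cybb (-0.24), Cd53 (-0.22) and Gpnmb (-0.19). The share of members called lower was below the 27.6% of all tested genes, whose median this scale moves to -0.18. Scaled this way, 1 member was lower without GFP replicate 2 (background 2.77%) and 1 without Cre replicate 2 (9.59%), 5 without Cre replicate 1 (22.7%) and 6 without GFP replicate 1 (23.8%). The higher calls in edgeR numbered 0 without GFP replicate 2 (0.266%), 2 without Cre replicate 2 (0.692%), 0 without Cre replicate 1 (0.809%) and 1 without GFP replicate 1 (1.19%).

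**Figure D3:**
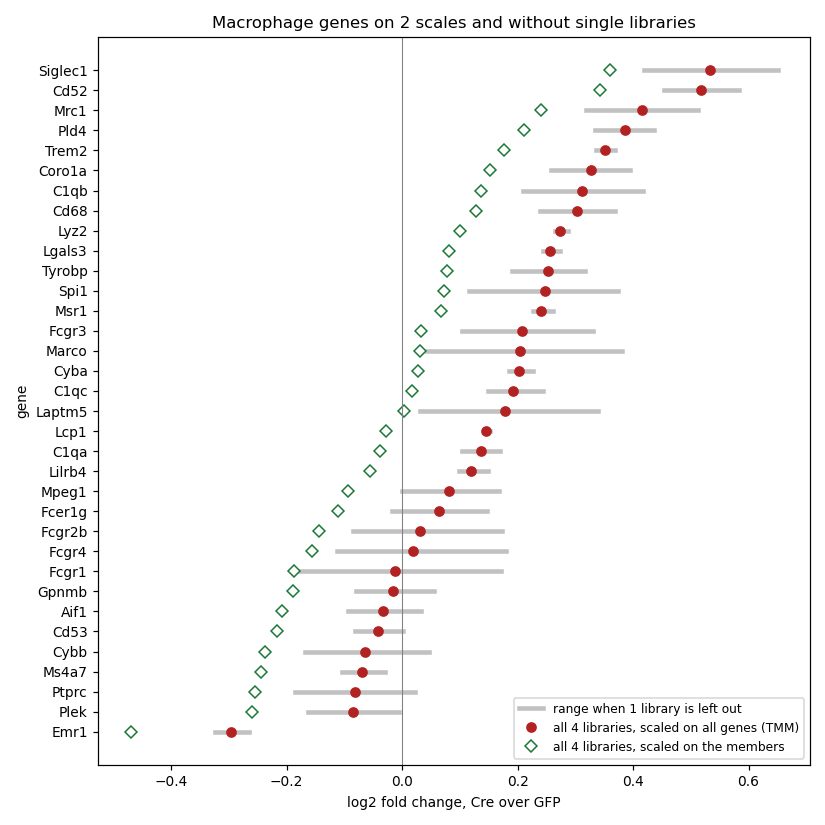
Log2 fold change of Cre over GFP for the 34 macrophage genes on 2 scales: red circles, libraries scaled on all genes by TMM; green diamonds, libraries scaled on the members; grey bars, the range when 1 library is left out under TMM. Siglec1 lies at 0.53 and 0.36 on these scales and Emr1 at -0.30 and -0.47, while the bars of Ptprc, Cybb, Gpnmb and 3 of the 4 Fc receptor genes cross 0.

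Of 43 further macrophage genes tested from a list of 48, 3 rose and 3 fell in edgeR, with a median log2 fold change of 0.07. Over all tested genes 3.74% rose and 3.22% fell. DESeq2 called 2 higher and 0 lower of the 38 with an adjusted p. Mmp12, the macrophage elastase gene, had 179 and 176 CPM with Cre, against 101 and 106 CPM with GFP (0.78, standard error 0.06, edgeR adjusted p = 7.79e-10). Ifi30, a lysosomal thiol reductase gene, rose too (0.46). The falls were those of Clec4e, a receptor for microbial and dead-cell ligands, with 4.15 and 3.73 CPM with Cre, against 7.53 and 7.83 CPM with GFP (-0.96, edgeR adjusted p = 0.000450), of Lst1 (-0.68), and of the complement receptor gene C3ar1 (-0.22). The DESeq2 adjusted p was 0.0552 for Clec4e and 0.134 for C3ar1, and DESeq2 gave none for Lst1. With library size alone or with the replicate number as a block, Clec4e passed in edgeR and Lst1 and C3ar1 did not. Csf1r had 101 and 93.4 CPM with Cre, against 80.6 and 93.9 CPM with GFP, and did not pass (0.16, edgeR adjusted p = 0.213). Its log2 fold change was 0.05 without GFP replicate 1 and 0.27 without GFP replicate 2, and 15.1% of its exon bases are shared with Hmgxb3.

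Of 39 general leukocyte genes outside the members, 1 rose and 0 fell in edgeR, with a median of 0.03. Of all tested genes 3.74% rose and 3.22% fell. Of the 39, 6 had an unadjusted p under 0.05 (20.9% of all tested genes). DESeq2 called 0 of the 31 with an adjusted p. The rise was that of the actin regulator Nckap1l (0.28, edgeR adjusted p = 0.0248), which stood at 0.12 without GFP replicate 1 and 0.44 without GFP replicate 2. Of 14 transcription factor genes of the macrophage lineage, such as Irf8 and Cebpa, 0 passed in edgeR. Of the 14, 3 had an unadjusted p under 0.05 (20.9% of all tested genes). DESeq2 called 0 of the 13 with an adjusted p. The edgeR log2 fold changes of the 14 lay between -0.11 and 0.31. Of 10 osteoclast genes tested, 0 rose and 2 fell in edgeR (3.74% and 3.22% of all tested genes). Of the 10, 4 had an unadjusted p under 0.05 (20.9% of all tested genes). DESeq2 called 0 of the 9 with an adjusted p. The falls were those of Acp5, the tartrate-resistant phosphatase gene (-0.45), and Mmp9 (-0.46). Leaving out GFP replicate 2 gave Mmp9 a value of -0.14, and leaving out GFP replicate 1 a value of -0.73.

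Of 33 genes tested that describe macrophage states, 13 rose and 1 fell in edgeR, with a median of 0.19. Over all tested genes 3.74% rose and 3.22% fell. DESeq2 called 9 higher and 0 lower of the 28 with an adjusted p. Apoe, a lipid carrier, had 198 and 193 CPM with Cre, against 113 and 127 CPM with GFP (log2 fold change 0.70, edgeR adjusted p = 1.48e-08). Slc40a1, which exports iron from macrophages, had 52.3 and 47.2 CPM with Cre, against 32.2 and 28.8 CPM with GFP (0.70, edgeR adjusted p = 1.28e-06). In both genes the groups did not overlap.

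Ccl6, a chemokine gene (0.71), and the lysosomal protease gene Ctsd (0.42) rose as well, and 34.4% of the exon bases of Ctsd are shared with Gm49369. The fall was that of Cd274, the gene of the inhibitory ligand PD-L1 (-0.50, edgeR adjusted p = 0.00558, DESeq2 adjusted p = 0.160). Stromal cells can express Apoe, Ctsd and other genes of this list too, and a bulk library does not show which cells these counts came from. What part stromal cells have in the rises of this list was not tested. Activation markers of this list differed widely in level. Retnla and Ccl22 were at 0 in every library, Chil3 had 1 count in 1 GFP library, and Arg1 had between 3.59 and 4.60 CPM. The costimulatory gene Cd80 had 35.3 and 33.2 CPM with Cre, against 40.9 and 37.4 CPM with GFP, and Nos2, the inducible nitric oxide synthase, had 8.10 and 10.3 CPM with Cre, against 9.06 and 11.5 CPM with GFP.

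**Figure D4:**
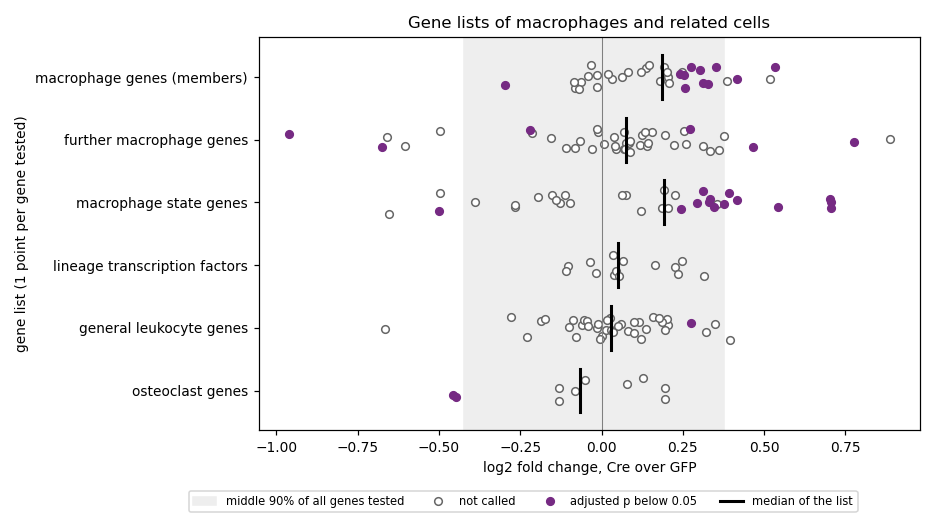
Log2 fold change of Cre over GFP for each tested gene (points) of the macrophage genes and 5 other lists (rows); filled points passed an adjusted p of 0.05, black bars mark the list median and the grey band holds the middle 90% of all tested genes. The medians of the macrophage genes and of the state genes lie at 0.19, those of the general leukocyte genes at 0.03 and of the osteoclast genes at -0.07.

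The factors that sustain and attract macrophages were measured in the same libraries. Csf1, the growth factor that most tissue macrophages need, had 1989 and 1967 CPM with Cre, against 2166 and 2319 CPM with GFP (log2 fold change -0.18, edgeR adjusted p = 0.0703, DESeq2 adjusted p = 0.0253). Il34, the second ligand of the Csf1 receptor, fell, with 6.30 and 7.12 CPM with Cre, against 11.0 and 12.1 CPM with GFP (-0.78, standard error 0.14, edgeR adjusted p = 0.000611). In this list of 12 tested genes 1 rose and 3 fell in edgeR (3.74% and 3.22% of all tested genes). DESeq2 called 1 higher and 2 lower of the 10 with an adjusted p. The osteoclast factor gene Tnfsf11 (-0.89) and the chemokine gene Cxcl12 (-0.28) were the other falls, and Tnfrsf11b, the decoy receptor of that osteoclast factor, rose (0.26). DESeq2 did not call Il34 (DESeq2 adjusted p = 0.0540) or Tnfsf11 (DESeq2 adjusted p = 0.0524). What part these factors have in the macrophage levels was not tested.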

How the data were processed

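The authors deposited whole-number read counts per gene, not normalized. Per the labels' protocols, Trizol RNA (1 µg) went into TruSeq libraries. The submitters' processing notes name HISAT2 and GRCm38. How reads were counted (program, annotation, strand, multiple hits) is not stated there, so related and overlapping genes are uncertain.

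Genes passing filterByExpr (minimum count 10, total 15) were scaled by TMM and tested with edgeR 4.0.16 in R 4.3.3: quasi-likelihood F-test, group as the only term, Benjamini-Hochberg adjustment over 14483 genes, threshold 0.05. The biological coefficient of variation was 4.73%. CPM use TMM-scaled sizes, and each log2 fold change is Cre over GFP. A floor of 3 counts equals between 0.207 and 0.255 CPM and covers counting error only. Median chi-square over counting noise was 1.78 (Cre pair), 2.32 (GFP pair) and between 3.10 and 4.61 (between groups).

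Members and gene lists were chosen with earlier results of these data known. All members are accounted for. Of other lists at most 4 called genes with the smallest adjusted p were named by rule; Lst1, C3ar1, Cd274 and the further marker genes were named after their values were seen. Some genes of the other lists are not reported here by name. Of 316 listed names, 2 were not found. Gene positions are RefSeq's on GRCm38.p6, and lengths and exon overlap are from GENCODE M21. Alternatives were other scalings, filters and tools (DESeq2 1.42.0, limma-voom 3.58.1), robust dispersion, the replicate number as a block, and leaving out each library, where a lone library is assumed to vary like the other group.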

Additional observations from a re-analysis of the deposited data

How the results depend on the processing

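The counts for all tested genes (1009), for members called higher (10) and lower (1), and for further macrophage genes called higher (3) and lower (3) are taken in this order. Scaling by library size alone gave 530, 7, 1, 2 and 1, DESeq2 378, 4, 1, 2 and 0, and no low-count filter 30, 0, 0, 1 and 0, with 2762 genes at an unadjusted p under 0.05 in edgeR. Size factors from the members gave 4178, 2, 7, 2 and 8. A minimum of 1 CPM in 2 libraries and robust dispersion each raised the further macrophage genes called higher to 5. Counts over all genes under these settings are not given here, so that number cannot be set against them. The replicate block gave 829, 9, 1, 3 and 1, losing Coro1a (edgeR adjusted p = 0.0624). Same-numbered libraries did not deviate together (r = -0.0089 across 14483 genes, which are not independent). This gave no sign of pairing. As 1 correlation from 2 libraries per virus, it cannot exclude that same-numbered libraries share a culture or mouse. Without 1 library at a time the counts ranged between 0 and 516, 0 and 4, 0 and 0, 0 and 2, and 0 and 1. On the members' own scale, whose leave-one-out fits were added after seeing the data, calls without 1 library ranged between 0 and 2 (higher) and 1 and 6 (lower). The median log2 fold change of the members was 0.22 with library size alone, 0.011 with size factors from the members and between 0.15 and 0.22 without 1 library. Their summed log2 ratio of 0.15 was 0.18 with library size alone, -0.027 with size factors from the members and between 0.11 and 0.18 without 1 library.

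No called member changed sign under any alternative run. Of uncalled genes, size factors from the members turned Fcer1g (-0.11), C1qa (-0.039), Fcgr2b (-0.14), Mpeg1 (-0.093), Lilrb4 (-0.055), Lcp1 (-0.029), Fcgr4 (-0.16) and Csf1r (-0.018), and library size alone turned Fcgr1 (0.019) and Gpnmb (0.020). Without 1 library, ranges crossed 0 for Fcer1g (-0.017 to 0.15), Fcgr1 (-0.18 to 0.17), Fcgr2b (-0.085 to 0.17), Ptprc (-0.19 to 0.022), Cybb (-0.17 to 0.046), Aif1 (-0.094 to 0.033), Mpeg1 (-0.00077 to 0.17), Gpnmb (-0.080 to 0.055), Cd53 (-0.081 to 0.0023) and Fcgr4 (-0.11 to 0.18). The cause was not tested, except that leaving out a library leaves fewer samples and the member scale shifts all genes by construction. By standard error, depth limits Fcgr1, Fcgr2b, Fcgr4, Aif1 and Cd52 most among the members tested.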
